A study of Homo sapiens with 3 samples.

Results

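The genes described are 45 human genes of the kinetochore and the spindle assembly checkpoint, measured by RNA sequencing in MDA-MB-231 cells, a triple-negative breast cancer line. They were taken by name from the known parts of these machines, and all 45 of the 45 listed genes were found among the 48162 genes in the files. All 45 also reached a mean of at least 1 FPKM (sequenced fragments per kilobase of transcript, after scaling to depth) over the 3 libraries, the level that 12649 named genes reached and that was asked of every gene analysed. By role, 15 belong to the inner kinetochore, 13 to the outer kinetochore, 3 to the fibrous corona, 7 to the spindle checkpoint and 6 to the chromosomal passenger complex and the shugoshins. The remaining gene, CENPJ, carries a CENP symbol but encodes a centriole protein.

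Kinetochores are protein assemblies that build on centromeric chromatin and hold chromosomes to spindle microtubules. The inner layer rests on nucleosomes that contain the histone variant CENP-A, the outer layer grips the microtubule, and the fibrous corona captures microtubules early in mitosis. Unattached kinetochores recruit checkpoint proteins that restrain the anaphase-promoting complex until every chromosome is attached, while the chromosomal passenger complex corrects faulty attachments. Most of these genes are transcribed in late cell cycle under the control of repressor and activator complexes that bind CHR and CCAAT elements in their promoters.

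The study compared a Geminin and FoxO3 co-depletion and a FoxO3 depletion with a control, with 1 library per group. FoxO3 is a forkhead transcription factor, and Geminin, encoded by GMNN, prevents replicated DNA from being licensed again. All 3 cultures were grown in medium with 10% serum and exposed to lentivirus for 24 h before fresh medium was given, and RNA was taken 72 h later. The libraries were made from 3 ug of total RNA with a TruSeq kit. The titles of both depleted libraries carry a 3 that the labels do not explain. The depleting sequences and the control's vector were not given in the sources used here, and nothing in the labels says whether the cells were cloned or selected.

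The levels of both targeted genes matched the titles. FOXO3 stood at 2.94 FPKM in the co-depletion and 2.79 FPKM in the FoxO3 depletion, against 12.2 FPKM in the control, and GMNN stood at 37.0, 112.2 and 112.3 FPKM in the same order of libraries. Read totals inferred from the values were 12267332 in the co-depletion, 10760613 in the FoxO3 depletion and 14507410 in the control, so the depleted libraries held 84.6% and 74.2% of the control's depth. Genes that mark this line (VIM, CD44, AXL, MSN and EGFR) summed to between 2482 and 2794 FPKM, ESR1 and PGR stood at 0.12 FPKM or less, CDH1 at 1.02 FPKM or less, and the leukocyte markers CD3E and CD68 were listed at 0. EPCAM, a further gene listed as low in this line, stood at 8.95 FPKM in the co-depletion and 9.80 FPKM in the FoxO3 depletion, against 13.8 FPKM in the control. NEFM and CHGB, which mark the HEK293 line often used to package lentivirus, stood at 0.04 FPKM or less. The leukocyte list summed to between 0.51 and 1.69 FPKM and the endothelial list to between 5.70 and 7.13 FPKM. Of the fibroblast list COL1A1 alone passed 1 FPKM, at 24.3 FPKM in the co-depletion and 25.3 FPKM in the FoxO3 depletion, against 13.4 FPKM in the control. The part of these levels in the results below was not tested.

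Since each group is a single library, differences could not be set against replicates and no p-values are given. Genes were called higher or lower by size, at 1.5-fold on the scale of FPKM + 1. Each FPKM ratio carries an exact 95% Clopper-Pearson interval computed from recovered reads, which covers counting error only and compares libraries, not conditions. Fewer cells in mitosis and less RNA per mitotic cell cannot be told apart in bulk libraries. The co-depletion and the FoxO3 depletion were set against 1 shared control library, so likeness between them is not independent evidence.

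Several kinetochore genes were lower in both depletions and none was higher by the size rule. In the co-depletion 13 of 45 were at least 1.5-fold lower than in the control, against 12.3% of all analysed genes, and 0 of 45 were higher, against 4.02%. In the FoxO3 depletion 14 of 45 were lower, which is 31.1% of them, against 16.7% of all analysed genes, and 0 of 45 were higher, against 4%. At 2-fold the lower counts were 4 in the co-depletion (2.25% of all genes) and 7 in the FoxO3 depletion (5.23% of all genes). The median log2 ratio of the 45 genes was −0.24 in the co-depletion and −0.14 in the FoxO3 depletion, against −0.06 and −0.07 for all analysed genes. The counting intervals of the ratio lay below 1 for 27 members in the co-depletion (32.4% of all analysed genes) and 25 in the FoxO3 depletion (34.4%), and above 1 for 5 and 7 (24.2% of all genes in each). Every gene called lower had transcripts of under 45% GC, as the plot of log2 ratio against GC content shows.

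**Figure D1:**
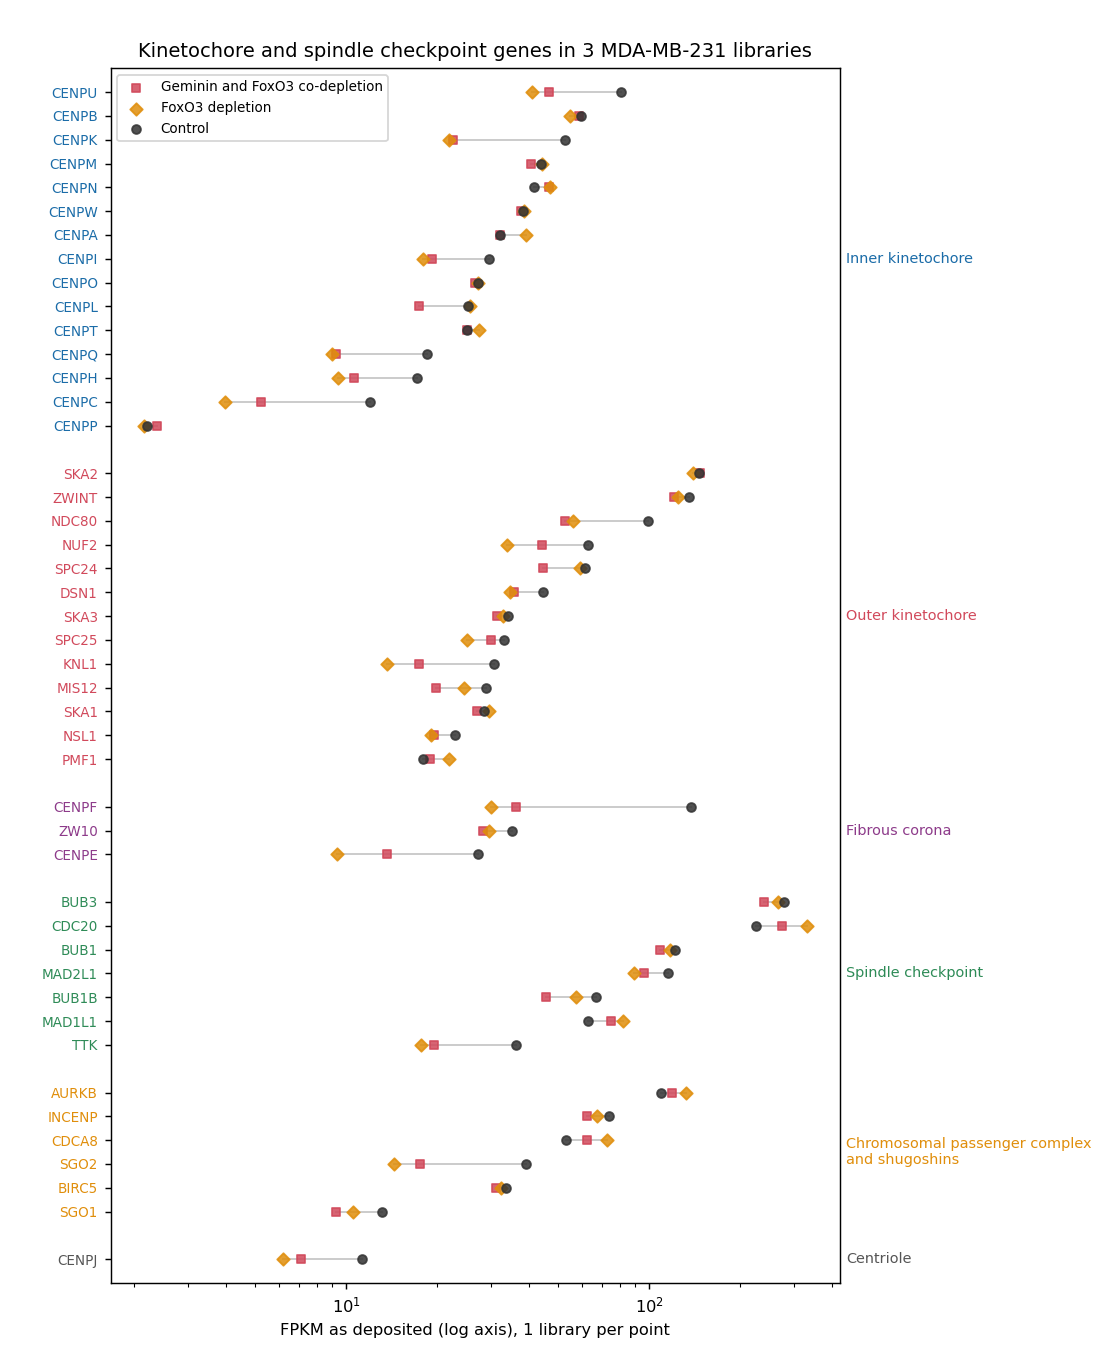
FPKM of each of the 45 genes on a log axis, with squares for the Geminin and FoxO3 co-depletion, diamonds for the FoxO3 depletion and circles for the control (1 library each), grouped by role. CENPF shows the widest gap, with 36.4 FPKM in the co-depletion and 30.0 FPKM in the FoxO3 depletion against 137.9 FPKM in the control, while CDC20 lies higher in both depletions than in the control.

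The fibrous corona held the lowest ratio among the members in both comparisons with the control, that of CENPF. CENPF is a very large corona and nuclear-matrix protein that accumulates in G2. It stood at 36.4 FPKM in the co-depletion and 30.0 FPKM in the FoxO3 depletion, against 137.9 FPKM in the control. That is 26.4% of control in the co-depletion (95% interval 23.2% to 29.9%) and 21.8% in the FoxO3 depletion (18.8% to 25.1%), the only member past 3-fold on the FPKM + 1 scale. CENPE, the kinesin that carries chromosomes toward the metaphase plate, stood at 13.6 FPKM in the co-depletion and 9.31 FPKM in the FoxO3 depletion, against 27.2 FPKM in the control. Its level was 50.1% of control in the co-depletion (43.3% to 57.9%) and 34.2% in the FoxO3 depletion (28.6% to 40.7%). ZW10, which brings dynein to the corona, did not reach 1.5-fold, with 28.3 FPKM in the co-depletion and 29.6 FPKM in the FoxO3 depletion, against 35.2 FPKM in the control. The 3 corona genes thus ran from 84.2% to 21.8% of control in the FoxO3 depletion.

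The promoters of the genes with the 3 lowest and 2 highest log2 ratios of (FPKM + 1) in the FoxO3 depletion are shown because elements of those kinds were searched in them. The sequences are RefSeq's on GRCh38.p14, 300 bases each, 250 before the annotated start to 50 after it, written 5′ to 3′ on the gene's strand. Capitals mark letters of the elements, which were searched on both strands. The CHR element was TTTGAA or the variant TTCGAA, and the CCAAT element is its own name. For E2F the letters were TTTCCCGC or TTTGGCGC, and for FOXO factors they were GTAAACA. CENPF lies at chr1:214602945-214603244 on the plus strand, CENPE at chr4:103198294-103198593 on the minus strand and SGO2 at chr2:200525892-200526191 on the plus strand. CDC20 lies at chr1:43358731-43359030 and CDCA8 at chr1:37692266-37692565, both on the plus strand.
CENPF: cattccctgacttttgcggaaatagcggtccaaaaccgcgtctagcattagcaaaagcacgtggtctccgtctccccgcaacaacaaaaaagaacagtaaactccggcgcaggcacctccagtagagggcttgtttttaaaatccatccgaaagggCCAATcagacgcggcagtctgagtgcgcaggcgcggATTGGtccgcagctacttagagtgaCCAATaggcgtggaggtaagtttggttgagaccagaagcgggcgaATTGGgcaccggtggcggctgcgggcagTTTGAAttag
CENPE: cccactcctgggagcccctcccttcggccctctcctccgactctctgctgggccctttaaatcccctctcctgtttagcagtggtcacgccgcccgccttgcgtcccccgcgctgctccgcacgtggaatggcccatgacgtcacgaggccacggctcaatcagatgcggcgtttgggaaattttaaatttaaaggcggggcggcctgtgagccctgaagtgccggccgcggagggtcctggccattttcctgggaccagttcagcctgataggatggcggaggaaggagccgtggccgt
SGO2: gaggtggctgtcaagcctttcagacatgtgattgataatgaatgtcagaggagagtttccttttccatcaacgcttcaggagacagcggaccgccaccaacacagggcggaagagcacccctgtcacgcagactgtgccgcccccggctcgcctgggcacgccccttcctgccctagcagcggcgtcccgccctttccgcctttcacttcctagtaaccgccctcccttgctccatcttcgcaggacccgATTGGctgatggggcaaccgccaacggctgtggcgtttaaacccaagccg
CDC20: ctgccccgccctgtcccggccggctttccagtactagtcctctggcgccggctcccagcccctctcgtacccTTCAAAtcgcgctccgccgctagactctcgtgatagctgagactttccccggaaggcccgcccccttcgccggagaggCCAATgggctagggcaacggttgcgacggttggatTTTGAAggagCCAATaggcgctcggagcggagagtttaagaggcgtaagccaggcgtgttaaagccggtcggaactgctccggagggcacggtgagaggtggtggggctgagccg
CDCA8: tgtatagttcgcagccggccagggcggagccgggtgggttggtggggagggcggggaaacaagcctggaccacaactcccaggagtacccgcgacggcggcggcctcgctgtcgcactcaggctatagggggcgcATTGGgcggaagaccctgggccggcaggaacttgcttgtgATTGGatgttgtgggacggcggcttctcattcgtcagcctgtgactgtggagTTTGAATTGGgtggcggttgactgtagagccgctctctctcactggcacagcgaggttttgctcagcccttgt
The CENPF window held 1 CHR and 4 CCAAT matches, the SGO2 window 1 CCAAT match, and the CENPE window none of the 4 elements. The CDC20 window held 2 CHR and 2 CCAAT matches, and the CDCA8 window 1 CHR and 3 CCAAT matches, of which 1 overlaps the CHR letters. A match describes letters in a window and shows neither a bound site nor a cause.

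Promoters were matched for 37 of the 45 genes, the others being BIRC5, BUB3, CENPH, CENPJ, CENPL, CENPM, KNL1 and TTK. CHR letters were in 20 of the 37 windows (54.1%), against 16.4% of all 35116 promoters in the table. CCAAT was in 23 (62.2%), against 34.6%, and both elements together were in 14 (37.8%), against 6.38%. E2F letters were in 2 windows (5.41%, against 2.27%), and the FOXO letters were in 1 window (2.70%, against 3.42%), that of CENPQ. Of the 10 matched genes at least 1.5-fold lower in the FoxO3 depletion, 4 held CHR and 6 held CCAAT, against 16 and 17 of the other 27. Promoter GC content had a median of 61.7% in those 10 and 62.0% in the other 27, and its Spearman correlation with the log2 ratio of the FoxO3 depletion was 0.09 across the 37 genes. The low GC content of the lower genes described below is that of their transcripts, not of these windows.

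The inner kinetochore held genes that were called lower in both depletions and genes that were not called in either. Of its 15 genes, 6 were at least 1.5-fold lower in the co-depletion and the same number in the FoxO3 depletion, and the median log2 ratios were −0.10 and −0.02. The 6 were CENPC, CENPK, CENPQ, CENPU, CENPH and CENPI in both comparisons. They belong to the constitutive centromere-associated network, as do the other inner genes except CENPA and CENPB. The 6 are 40% of the group, beside 12.3% and 16.7% of all analysed genes. They are 75% of the 8 inner genes under 45% GC, beside 27.1% and 35.9% of analysed genes in that range. After the GC adjustment described below, CENPK alone stayed lower in the co-depletion and CENPC alone in the FoxO3 depletion. CENPC, which links CENP-A nucleosomes to the outer kinetochore, stood at 5.23 FPKM in the co-depletion and 3.99 FPKM in the FoxO3 depletion, against 12.0 FPKM in the control. It was at 43.6% of control in the co-depletion (35.6% to 53.1%) and 33.3% in the FoxO3 depletion (26.2% to 41.8%). CENPK, a partner of CENPH and CENPI in the network, stood at 22.6 FPKM in the co-depletion and 21.9 FPKM in the FoxO3 depletion, against 52.6 FPKM in the control. It was at 43.0% of control in the co-depletion (37.1% to 49.7%) and 41.7% in the FoxO3 depletion (35.6% to 48.6%). CENPU, which docks the polo kinase PLK1, stood at 46.6 FPKM in the co-depletion and 41.2 FPKM in the FoxO3 depletion, against 80.6 FPKM in the control. These are 57.9% of control (52.3% to 63.9%) and 51.1% of control (45.8% to 56.9%). CENPQ, a CENPU partner, stood at 9.27 FPKM in the co-depletion and 9.01 FPKM in the FoxO3 depletion, against 18.5 FPKM in the control. CENPH stood at 62.1% of control in the co-depletion and 54.8% in the FoxO3 depletion, and CENPI at 65.2% and 60.8%.

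The other 9 inner genes were not called in either comparison with the control. CENPA itself, the centromeric histone, stood at 32.2 FPKM in the co-depletion and 39.3 FPKM in the FoxO3 depletion, against 32.1 FPKM in the control. Its ratio to control was 100.5% in the co-depletion and 122.5% in the FoxO3 depletion (107.5% to 139.5%). CENPB, which binds a motif in alpha-satellite DNA, stood at 58.7 FPKM in the co-depletion and 54.9 FPKM in the FoxO3 depletion, against 59.8 FPKM in the control, an interval of 92.5% to 104.1% of control in the co-depletion and 86.3% to 97.8% in the FoxO3 depletion. CENPN, which reads the CENP-A nucleosome, stood at 46.8 FPKM in the co-depletion and 47.0 FPKM in the FoxO3 depletion, against 41.6 FPKM in the control, or 112.6% of control (101.0% to 125.5%) and 113.0% (100.9% to 126.4%). Hence CENPA, CENPB and CENPN lay between 91.9% and 122.5% of control over both depletions. CENPL, the partner of CENPN, separated the depletions, with 17.4 FPKM in the co-depletion and 25.6 FPKM in the FoxO3 depletion, against 25.3 FPKM in the control. In the co-depletion it stood at 68.8% of control (59.5% to 79.4%), close to CENPI, which was called at 65.2%.

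In the outer kinetochore KNL1 and part of the NDC80 complex were lower, and the SKA complex was near the control. Of the 13 genes, 2 were at least 1.5-fold lower in the co-depletion (KNL1 and NDC80). In the FoxO3 depletion 3 were (KNL1, NUF2 and NDC80). The median log2 ratios were −0.22 and −0.23. The counts are 15.4% and 23.1% of the group, beside 12.3% and 16.7% of all analysed genes. Of the 10 outer genes under 45% GC they are 20% and 30%, beside 27.1% and 35.9% of analysed genes in that range. After the GC adjustment described below, 0 of the 13 stayed lower in either depletion. KNL1, the scaffold on which checkpoint proteins assemble, stood at 17.5 FPKM in the co-depletion and 13.7 FPKM in the FoxO3 depletion, against 30.8 FPKM in the control. It was at 56.7% of control in the co-depletion (51.4% to 62.3%) and 44.4% in the FoxO3 depletion (39.8% to 49.6%). NDC80, the main microtubule-binding subunit, stood at 52.8 FPKM in the co-depletion and 56.1 FPKM in the FoxO3 depletion, against 98.8 FPKM in the control. It was at 53.4% of control in the co-depletion (48.2% to 59.2%) and 56.8% in the FoxO3 depletion (51.1% to 63.1%). NUF2, its dimer partner, stood at 44.2 FPKM in the co-depletion and 33.9 FPKM in the FoxO3 depletion, against 62.9 FPKM in the control. The other pair of the complex, SPC24 and SPC25, was not called, and SPC24 stood at 44.6 FPKM in the co-depletion and 59.3 FPKM in the FoxO3 depletion, against 61.4 FPKM in the control. SPC25 stood at 90.5% of control in the co-depletion and 75.4% in the FoxO3 depletion.

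SKA2, a subunit of the complex that follows depolymerising microtubules, stood at 146.8 FPKM in the co-depletion and 139.9 FPKM in the FoxO3 depletion, against 145.7 FPKM in the control. Its interval was 94.0% to 108.1% of control in the co-depletion and 89.2% to 103.4% in the FoxO3 depletion. SKA1 stood at 27.1, 29.7 and 28.5 FPKM and SKA3 at 31.5, 32.9 and 34.3 FPKM in the co-depletion, the FoxO3 depletion and the control. ZWINT, which ties KNL1 to the corona, stood at 121.1 FPKM in the co-depletion and 124.9 FPKM in the FoxO3 depletion, against 135.1 FPKM in the control, or 89.6% (84.5% to 95.1%) and 92.5% (87.0% to 98.3%). None of the 4 subunits of the MIS12 complex, which joins the inner to the outer layer, was called. Of these 4, MIS12 had the lowest ratio to control in the co-depletion, at 19.8 FPKM in the co-depletion and 24.5 FPKM in the FoxO3 depletion, against 28.9 FPKM in the control, while DSN1, NSL1 and PMF1 ran between 78.0% and 122.2% of control over both depletions.

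The spindle checkpoint genes lay on both sides of the control. As deposited, the gene for the ubiquitin-ligase activator that the checkpoint inhibits had the highest ratio to control of the 45 in both depletions. Of the 7 genes only TTK was at least 1.5-fold lower, in both comparisons. That is 14.3% of the group, beside 12.3% and 16.7% of all analysed genes. After the GC adjustment described below, none of the 7 was called. The median log2 ratio was −0.21 in the co-depletion and −0.06 in the FoxO3 depletion. The 5 genes under 45% GC all had log2 ratios below 0 in both comparisons. CDC20 and MAD1L1, at 56.9% and 62.2% GC, had log2 ratios above 0. TTK, the MPS1 kinase that starts checkpoint signalling, stood at 19.5 FPKM in the co-depletion and 17.7 FPKM in the FoxO3 depletion, against 36.5 FPKM in the control. It was at 53.4% of control in the co-depletion (46.9% to 60.8%) and 48.4% in the FoxO3 depletion (42.0% to 55.7%). CDC20, the target of the checkpoint, stood at 274.9 FPKM in the co-depletion and 331.1 FPKM in the FoxO3 depletion, against 224.9 FPKM in the control. It was at 122.2% of control in the co-depletion (116.9% to 127.9%) and 147.2% in the FoxO3 depletion (140.8% to 153.9%), just under the 1.5-fold rule. After GC adjustment the log2 ratio of CDC20 was 0.48 in the FoxO3 depletion. In the co-depletion it was 0.22, below the 0.38 of SKA2. BUB3, which carries BUB1 and BUBR1 to kinetochores, stood at 240.0 FPKM in the co-depletion and 267.2 FPKM in the FoxO3 depletion, against 278.6 FPKM in the control, or 86.1% (82.6% to 89.9%) and 95.9% (91.9% to 100.1%). BUB1, a kinase that marks centromeric chromatin, stood at 108.3 FPKM in the co-depletion and 116.9 FPKM in the FoxO3 depletion, against 121.5 FPKM in the control, or 89.1% (84.3% to 94.3%) and 96.3% (90.9% to 101.9%). BUB1B, which encodes BUBR1 of the mitotic checkpoint complex, was not called, at 68.6% of control in the co-depletion (62.1% to 75.7%) and 86.1% in the FoxO3 depletion (78.2% to 94.7%). MAD1L1, which recruits MAD2 to kinetochores, stood at 119.3% of control in the co-depletion and 130.5% in the FoxO3 depletion. Its partner MAD2L1 stood at 96.1 FPKM in the co-depletion and 88.8 FPKM in the FoxO3 depletion, against 115.3 FPKM in the control. The transcripts of MAD1L1 and MAD2L1 have 62.2% and 39.2% GC. After GC adjustment their log2 ratios were 0.18 and 0.24 in the co-depletion and 0.36 and 0.28 in the FoxO3 depletion.

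No gene of the chromosomal passenger complex was called, and of the shugoshins, which shield centromeric cohesin, SGO2 was. Of these 6 genes SGO2 alone was at least 1.5-fold lower, in both comparisons. That is 16.7% of the group, beside 12.3% and 16.7% of all analysed genes. After the GC adjustment described below, it stayed lower in the FoxO3 depletion only. The median log2 ratio of the 6 was −0.18 in the co-depletion and −0.09 in the FoxO3 depletion. SGO2 stood at 17.5 FPKM in the co-depletion and 14.4 FPKM in the FoxO3 depletion, against 39.1 FPKM in the control. It was at 44.8% of control in the co-depletion (38.9% to 51.5%) and 36.8% in the FoxO3 depletion (31.3% to 43.0%). SGO1 was not called, at 70.6% of control in the co-depletion (58.0% to 85.7%) and 80.5% in the FoxO3 depletion (66.1% to 97.7%). AURKB, the kinase of the complex, stood at 118.7 FPKM in the co-depletion and 132.5 FPKM in the FoxO3 depletion, against 109.2 FPKM in the control, or 108.7% (100.4% to 117.7%) and 121.3% (112.0% to 131.4%). CDCA8, its borealin subunit, stood at 62.2 FPKM in the co-depletion and 72.9 FPKM in the FoxO3 depletion, against 53.2 FPKM in the control, or 116.8% (109.4% to 124.7%) and 136.9% (128.3% to 146.0%). INCENP, the scaffold, stood at 62.3 FPKM in the co-depletion and 67.1 FPKM in the FoxO3 depletion, against 73.9 FPKM in the control, or 84.3% (78.7% to 90.3%) and 90.8% (84.6% to 97.4%). The 4 subunits of this complex thus ran from 84.3% to 136.9% of control over both depletions. CENPJ, the centriole gene, stood at 7.11 FPKM in the co-depletion and 6.17 FPKM in the FoxO3 depletion, against 11.3 FPKM in the control, and was called lower in both comparisons, at 63.0% (52.3% to 75.7%) and 54.6% (44.5% to 66.8%).

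The members called lower all had transcripts poor in G and C. The members' transcripts had a median GC content of 42.6%, in a range of 33.9% (CENPQ) to 66.2% (CENPB), against 49.0% over all analysed genes. Of the 29 members under 45% GC, 13 were at least 1.5-fold lower in the co-depletion and 14 in the FoxO3 depletion, against 27.1% and 35.9% of the 4346 analysed genes in that range. Of the 16 members at 45% GC or more none was, against 4.50% and 6.66% of the 8303 genes in that range. The median log2 ratio of the 29 was −0.52 in the co-depletion and −0.39 in the FoxO3 depletion, beside −0.32 and −0.38 for all genes of that range. Across the 45 genes the Spearman correlation of log2 ratio with GC content was 0.74 in the co-depletion and 0.81 in the FoxO3 depletion, against 0.44 and 0.41 across all analysed genes. These correlations are across genes, which share libraries and base composition and are not replicates.

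**Figure D2:**
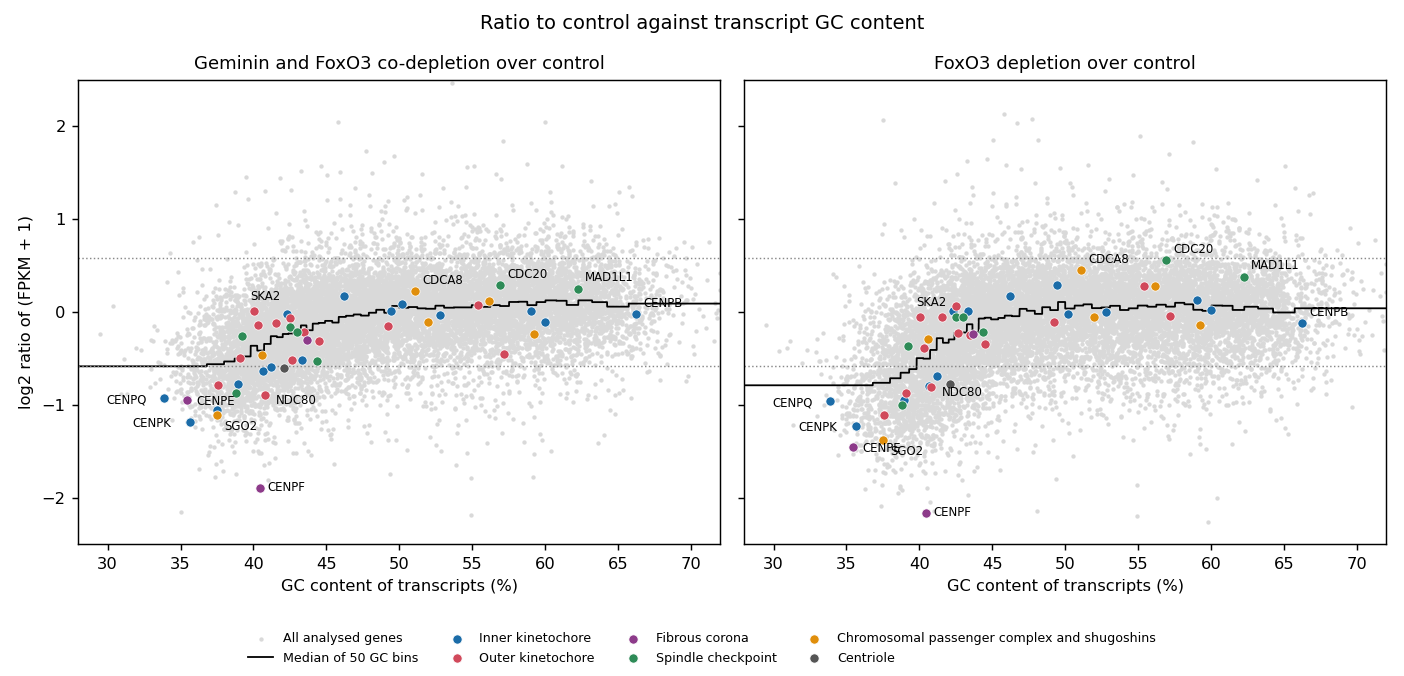
Log2 ratio of (FPKM + 1) to control against the length-weighted mean GC content of a gene's transcripts. The co-depletion is on the left and the FoxO3 depletion on the right. Grey dots mark the analysed genes inside the axes and coloured dots the 45 genes by role. The black line is the median of 50 GC bins, and dotted lines lie at 1.5-fold. Low-GC genes sit below zero as a whole, and CENPF lies far under the black line while SKA2, at 40.0% GC, lies above it.

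When the median log2 ratio of genes of like GC content was subtracted, most calls were lost. In the co-depletion 2 of 45 stayed past 1.5-fold, against 5.70% of all analysed genes, and in the FoxO3 depletion 4 of 45 did, against 8.42%. Set against genes under 45% GC alone, these are 2 and 4 of 29 members, beside 6.24% and 10.3%. Over all analysed genes, the share of calls that were lower was 75.3% in the co-depletion and 80.7% in the FoxO3 depletion as deposited, and 55.9% and 59.2% after the adjustment. CENPF kept an adjusted log2 ratio of −1.48 in the co-depletion and −1.66 in the FoxO3 depletion. CENPK was the other gene in the co-depletion, at −0.60, and CENPE, SGO2 and CENPC were the others in the FoxO3 depletion, at −0.66, −0.62 and −0.62. CENPQ, the member with the lowest GC content, stood at −0.34 and −0.17 after the adjustment, against −0.92 and −0.96 before it. The checkpoint median changed sign, to 0.07 in the co-depletion and 0.17 in the FoxO3 depletion, and SKA2, near 0 before, stood at 0.38 and 0.44. In the inner group the adjusted medians were −0.21 and −0.06, in the outer group −0.07 and −0.11, and in the corona −0.36 and −0.66. Transcript GC content moved with the ratios across the whole transcriptome, and its part in the members' lower levels beyond this subtraction was not tested. After it the Spearman correlation with GC content across the members was still 0.29 in the co-depletion and 0.46 in the FoxO3 depletion.

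**Figure D3:**
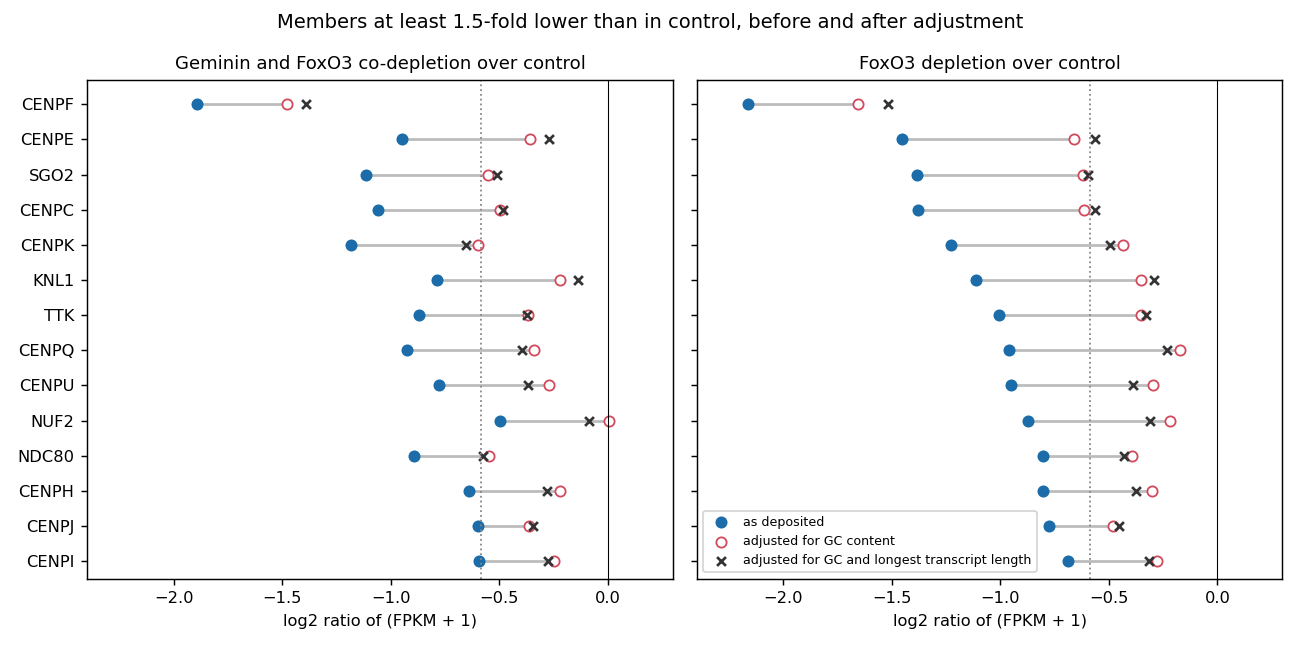
Log2 ratio of (FPKM + 1) to control for the 14 genes at least 1.5-fold lower in either depletion, in the co-depletion (left) and the FoxO3 depletion (right), as deposited (filled circles), after subtraction of the GC-bin median (open circles) and after subtraction for GC content and longest transcript length (crosses). CENPF stays beyond the dotted 1.5-fold line in all 3, and most other genes move inside it.

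Transcript length bears on single genes as well. The longest annotated transcript has 10307 bases for CENPF and 8612 for CENPE, against a median of 2711 for the 45 genes and 3519 for all analysed genes. The smallest length that gives whole reads from the deposited FPKM was 675 bases for CENPF and 1607 for CENPE, and the length used may be a multiple of it. Their levels therefore cannot be ranked against those of other genes, while ratios between libraries do not depend on that length. With both GC content and the longest transcript length subtracted, CENPF stood at −1.39 in the co-depletion and −1.52 in the FoxO3 depletion. CENPK at −0.65 was the other gene past 1.5-fold in the co-depletion, and SGO2 at −0.60 the other in the FoxO3 depletion. For 15 genes the annotated exons overlap those of another gene, and 8 have a named pseudogene, so their values are uncertain where strand or copy cannot be told.

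Set against the FoxO3 depletion, members differed in both directions in the co-depletion, each by less than 1.5-fold. None was called in either direction, against 1.35% of all analysed genes higher and 0.617% lower. Shares this small leave a count of none among 45 uninformative about the members. The median log2 ratio was −0.04, against 0.03 for all genes. CENPE had the highest ratio, 1.47 (1.201 to 1.79), followed by CENPC at 1.31 (1.001 to 1.72) and NUF2 at 1.31 (1.14 to 1.49), all lower in both depletions than in the control. KNL1 stood at 1.28 (1.13 to 1.44), SGO2 at 1.22 (1.01 to 1.47) and CENPF at 1.21 (1.01 to 1.45). The lowest ratio was that of CENPL, 0.681 (0.585 to 0.794), followed by SPC24 at 0.752 (0.667 to 0.848). BUB1B stood at 0.797 (0.715 to 0.888), and MIS12 at 0.810 (0.693 to 0.947). CENPA at 0.820 (0.716 to 0.939), CDC20 at 0.830 (0.795 to 0.868) and CDCA8 at 0.853 (0.800 to 0.911) were also lower in the co-depletion. The interval lay above 1 for 9 members (20%, against 13.4% of all genes) and below 1 for 10 (22.2%, against 8.77%). More reads narrow an interval, and in the FoxO3 depletion the members' median was 32.5 FPKM, against 17.0 FPKM for all analysed genes. The part of level in these shares was not tested. Across the 45 genes the Spearman correlation of this log2 ratio with GC content was −0.64, against −0.07 across all analysed genes. After GC adjustment it was −0.44 across the members. CENPE, CENPC and NUF2 had log2 ratios of 0.51, 0.32 and 0.38, or 0.29, 0.13 and 0.22 after GC adjustment. CENPL and SPC24 had −0.53 and −0.40, or −0.55 and −0.43. Because the intervals hold no variation between cultures, these ratios describe the 2 libraries.

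**Figure D4:**
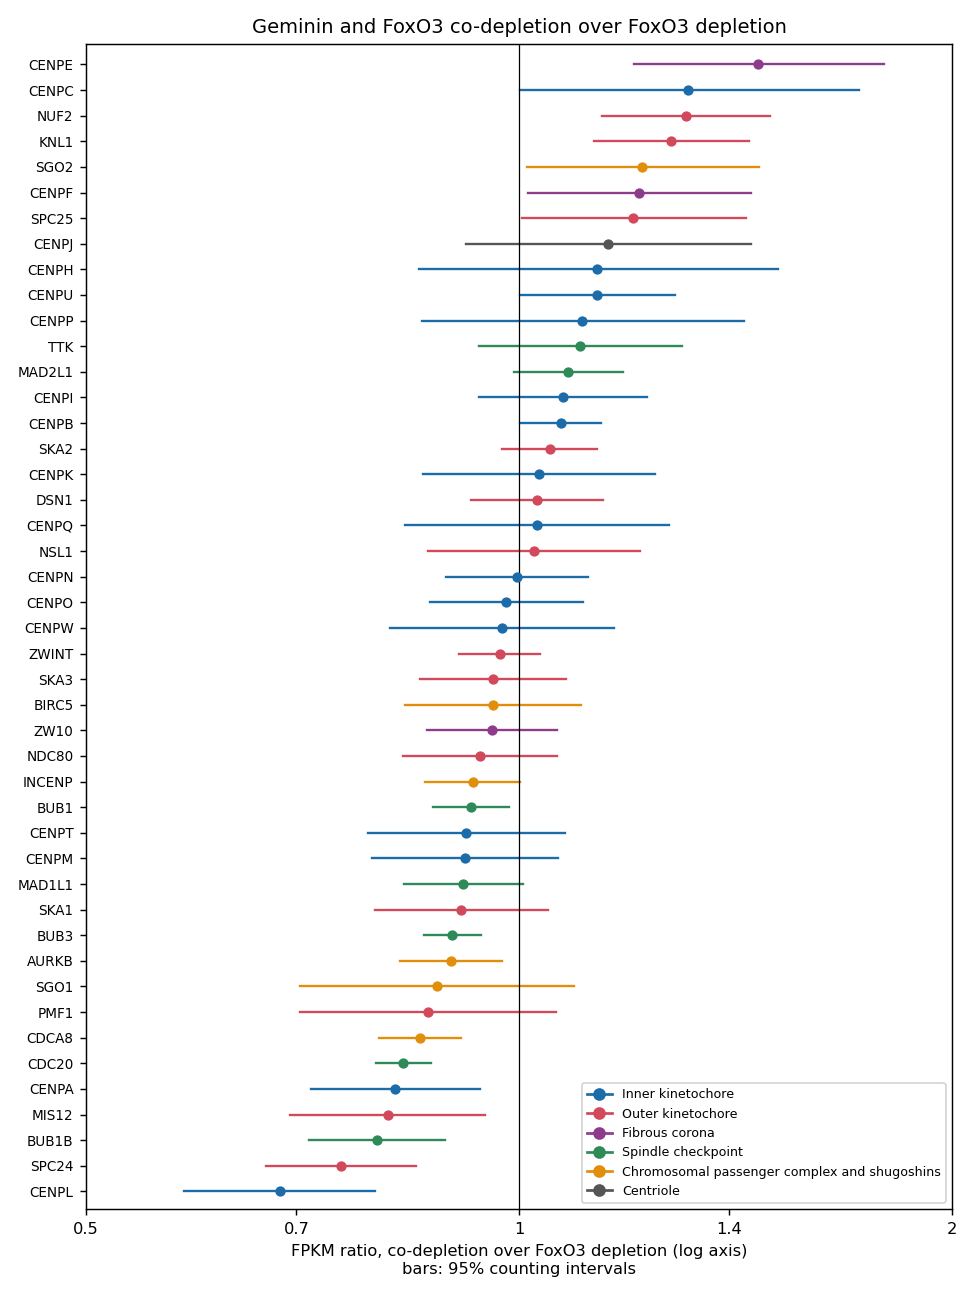
FPKM ratio of the co-depletion over the FoxO3 depletion for each of the 45 genes on a log axis, with bars for the 95% counting intervals and colours for the roles. CENPE (1.47) and CENPL (0.681) lie at the ends, and the bars of most genes between them span 1.

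Genes that work beside the members included a few that were lower and many that were not called. MIS18A and OIP5, which act in CENP-A deposition, stood at log2 ratios of 0.31 and −0.15 in the FoxO3 depletion. Among 18 further kinetochore and checkpoint partners, 3 were lower in the co-depletion and 5 in the FoxO3 depletion, beside 12.3% and 16.7% of all analysed genes, and none was higher. After GC adjustment 2 and 1 were lower, beside 5.70% and 8.42% of all analysed genes, KNTC1 among them in both. KNTC1, the ROD subunit that works with ZW10, stood at 35.7 FPKM in the co-depletion and 30.4 FPKM in the FoxO3 depletion, against 77.6 FPKM in the control. KIF18A, a kinesin that damps chromosome movements, stood at 14.2 FPKM in the co-depletion and 9.85 FPKM in the FoxO3 depletion, against 25.3 FPKM in the control. ITGB3BP, which encodes CENP-R, stood at 15.5 FPKM in the co-depletion, against 22.1 FPKM in the control, and had a log2 ratio of −0.94 in the FoxO3 depletion, or −0.18 after GC adjustment.

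Of 20 genes of the anaphase-promoting complex and separase, 1 was lower in the co-depletion and 3 in the FoxO3 depletion, beside 12.3% and 16.7% of all analysed genes, while 0 and 1 were higher. After GC adjustment none was lower in either depletion, beside 5.70% and 8.42% of all analysed genes. The higher one was UBE2S, which extends ubiquitin chains for the complex, at 645.6 FPKM in the co-depletion and 753.5 FPKM in the FoxO3 depletion, against 445.5 FPKM in the control. ANAPC4, a scaffold subunit, and FBXO5, which encodes the inhibitor EMI1, had log2 ratios of −0.92 and −0.86 in the FoxO3 depletion, or −0.21 and −0.09 after GC adjustment.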

How the data were processed

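RNA was sequenced in 3 MDA-MB-231 libraries, grouped by their titles read with the series' design text. The deposited values are FPKM per Ensembl gene, made by the authors with TopHat2 2.0.9 among their tools, per the submitters' processing notes. The counter, FPKM tool, build, annotation and strand use were not given in the sources used here. GENCODE 29 named 45342 of 48162 gene IDs and gave transcript lengths and GC content. A gene's GC content was the mean over its transcripts, weighted by their length.

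Ratios were log2 of (FPKM + 1) in 1 library over another, which understates differences of low genes. Genes with a mean of at least 1 FPKM were analysed and called at 1.5-fold. The GC adjustment subtracted the median log2 ratio of 50 GC bins. The smallest whole numbers of reads that give the FPKM of all libraries to a relative tolerance of 5e-09 were found for 93.0% of 20591 genes above 0 in at least 2 libraries, and for 0% of 2000 perturbed sets. They may be true reads divided by a common factor, which widens intervals. Intervals are Clopper-Pearson at 95%.

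The 45 genes and the other lists were chosen with earlier results of these data known. Full values are given for genes past 2-fold in either comparison with the control and for up to 3 further genes per role with the highest mean FPKM. From the other lists up to 3 genes with the largest log2 ratio, in either direction, in the FoxO3 depletion are named, and any further gene was chosen after its values were seen. Some results are not reported here. The procedure was tested on simulated data. Alternatives were pseudocounts of 0.1 and 0.5, a mean of 5 FPKM, no minimum, rescaling, protein-coding genes, other folds and adjustments for GC content and length. Python 3.11.15, pandas 2.3.3, NumPy 2.4.6, SciPy 1.17.1 and matplotlib 3.10.9 were used.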

Additional observations from a re-analysis of the deposited data

How the results depend on the processing

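No paired analysis was possible because each group holds 1 library, and for the same reason no library could be left out. The counts of lower members in the comparisons with the control depended on the size rule and on GC content. In the co-depletion, against 13 as reported, the count was 4 at 2-fold, 1 at 3-fold, 2 after GC adjustment and 3 after adjustment for GC and mean length. In the FoxO3 depletion, against 14, these counts were 7, 1, 4 and 4. Adjustments chosen after seeing the data gave, for GC and longest transcript length, 2 in each depletion, and for the GC content of the longest transcript 4 in the co-depletion and 6 in the FoxO3 depletion. That last adjustment called 2 members higher in the FoxO3 depletion (SKA2 and CENPW), and rescaling by the median ratio called 1 (CDC20). Rescaling by the median ratio left 10 lower members in the co-depletion.

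The corona median in the FoxO3 depletion was −0.66 after GC adjustment, −0.65 with mean length, −0.56 with longest length and −0.78 with the GC of the longest transcript. In the co-depletion it was −0.36, −0.34, −0.27 and −0.44. The checkpoint median was 0.17, 0.22, 0.22 and 0.11 in the FoxO3 depletion. In the co-depletion its values were 0.0684, 0.0684, 0.0421 and 0.0271. In the FoxO3 depletion the passenger complex and shugoshin median was 0.0628 after GC adjustment, and the outer kinetochore median was −0.0251 with the GC of the longest transcript. Pseudocounts, minimum levels, a minimum of 20 recovered reads (chosen after seeing the data), rescaling to TPM and protein-coding genes alone left every count of members as reported. The FoxO3-depleted library is the shallowest, and variation between cultures was not measured.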

Other observations

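Regulators of late cell cycle transcription and proliferation genes were measured in the same libraries. Of 20 analysed regulators, 3 were at least 1.5-fold lower in the co-depletion and 5 in the FoxO3 depletion, and none was higher, with median log2 ratios of −0.32 and −0.15. The lower shares of all analysed genes were 12.3% and 16.7%. After GC adjustment 1 and 2 regulators were lower, beside 5.70% and 8.42% of all analysed genes. They were RBL2 in both depletions and NFYA in the FoxO3 depletion. NFYA had log2 ratios of −0.48 in the co-depletion and −0.69 in the FoxO3 depletion, or −0.45 and −0.72 after GC adjustment. RBL2 and RBL1, the pocket proteins p130 and p107, had log2 ratios to control of −1.06 and −0.84 in the co-depletion and −0.93 and −0.86 in the FoxO3 depletion. After GC adjustment these were −0.78 and −0.50 in the co-depletion and −0.60 and −0.45 in the FoxO3 depletion. LIN9, a core subunit of the complex that these proteins join, had −0.85 in the FoxO3 depletion, or −0.20 after GC adjustment. FOXM1, an activator of mitotic genes, stood at 82.4 FPKM in the co-depletion and 83.7 FPKM in the FoxO3 depletion, against 75.9 FPKM in the control.

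Of 17 genes of mitotic entry and proliferation, 3 were lower and 1 higher in the co-depletion, and 4 were lower and 1 higher in the FoxO3 depletion. After GC adjustment 2 were lower (TOP2A and MKI67) and 1 higher in each. The lower shares of all analysed genes were 12.3% and 16.7% without the adjustment and 5.70% and 8.42% after it. TOP2A, the topoisomerase that untangles sister DNA, stood at 213.3 FPKM in the co-depletion and 175.4 FPKM in the FoxO3 depletion, against 477.7 FPKM in the control. Its GC-adjusted log2 ratios were −0.66 and −0.78. MKI67 stood at 102.5 FPKM in the co-depletion and 109.2 FPKM in the FoxO3 depletion, against 170.9 FPKM in the control. The GC-adjusted log2 ratios of MKI67 were −0.72 and −0.62. CDK1, the mitotic kinase, stood at 67.8 FPKM in the co-depletion and 58.2 FPKM in the FoxO3 depletion, against 122.1 FPKM in the control, and its log2 ratio of −1.06 in the FoxO3 depletion was −0.27 after GC adjustment. CDC25A, a phosphatase that activates cyclin-dependent kinases, was the higher gene, at 55.9 FPKM in the co-depletion and 64.8 FPKM in the FoxO3 depletion, against 30.7 FPKM in the control.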
